A study of Mus musculus with 2 samples.

Results

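The genes described here are 10 transcripts that define neutrophils and their bone marrow precursors, S100a8, S100a9, Ngp, Camp, Ltf, Retnlg, Mpo, Elane, Chil3 and Ly6g. They were found as every non-control probe that the scanner files assign to one of these symbols, which gave 11 probes for 10 genes, out of 56601 probes for 37008 gene names. Each gene had 1 probe, except Mpo with 2, and each probe was printed as 1 spot per array.

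RNA came from dorsal root ganglion (DRG) neurons of C57BL/6 mice, and 1 Agilent array was hybridised per genotype. Both genotypes carried the AND T cell receptor transgene, which gives the CD4 T cells a single specificity. The control was Dock8+/- and so had lost 1 functional copy of Dock8, the gene for an exchange factor that immune cells use in migration, while the other was Dock8-/-. The labels describe the level of IL-31, an itch cytokine made by T cells, as low in Dock8+/- and high in Dock8-/-. Age, sex and the number of animals per array are not given in the sources used here. The comparison asks which transcripts of the ganglion differ with the loss of Dock8.

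Neutrophils are short-lived phagocytes made in the bone marrow. Their granule proteins are transcribed in waves: azurophil granule enzymes such as myeloperoxidase and neutrophil elastase in promyelocytes, specific granule proteins such as lactoferrin, cathelicidin and neutrophilic granule protein in later precursors, and calprotectin (S100a8 with S100a9) through to the mature cell. Circulating neutrophils retain little transcript of the azurophil enzymes. Ly6G, the antigen used to identify mouse neutrophils, appears on the cell surface late in maturation.

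With 1 array per group there is no replicate and no test, so every difference is between 2 arrays and cannot be told apart from variation among mice of 1 genotype. The 75th percentile of processed intensity was 303.8 for Dock8+/- and 145.6 for Dock8-/-, and 56.9% and 50.7% of probes were well above background (the scanner software's flag). Differences are therefore given as scaled log2 differences, Dock8-/- minus Dock8+/-, after each array's 75th percentile was subtracted, and 2-fold serves as a description of size. All 12 sensory neuron markers tried, among them Prph, Avil and Scn10a, were well above background on both arrays. In such bulk RNA, fewer cells of a type and less RNA per cell cannot be told apart. The scanner software gives each spot an error, which for a difference of 2 bright spots comes to about 0.20 on the log2 scale. It covers the spot only, not the animal, the labelling or the choice of probe. Probes of the same gene read on both arrays ranged from 0.09 to 3.095 for Pou4f1 and from -0.87 to 0.355 for Scn10a. For Cx3cr1 they ranged only from -1.25 to -1.19. Such a spread cannot be seen for a gene with 1 probe.

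The neutrophil genes differed in direction. Of the 9 genes read on both arrays, Ngp and Mpo were higher by 2-fold or more in the Dock8-/- sample and none (0) was lower by that much, while the tenth, Ly6g, was read in Dock8+/- alone and was lower in Dock8-/- by a bound of 4.07-fold. Over all 18649 genes read on both arrays, 9.08% were higher and 7.03% lower by 2-fold or more. Among genes that Dock8+/- alone read, 17.6% had a bound past 2-fold lower, and among those that Dock8-/- alone read, 99% had a bound past 2-fold higher. The median difference of the 9 genes was 0.28 with a range from -0.70 to 2.27, against a median of 0.03 over all genes, and 7 of the 9 lay above 0, as did 51.8% of all genes. Before scaling, 9 of the 11 probes were dimmer on the Dock8-/- array, as were 92.1% of all genes, and the exceptions were Ngp and the dimmer probe of Mpo. The balance over all genes depends on the scaling. Higher and lower genes numbered 1694 and 1311 as reported, 1296 and 1532 after loess, 703 and 865 with normexp background correction, 221 and 9728 (1.19% and 52.2% of genes) without scaling, and 57 and 16293 on the scale of spike-in transcripts.

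**Figure D1:**
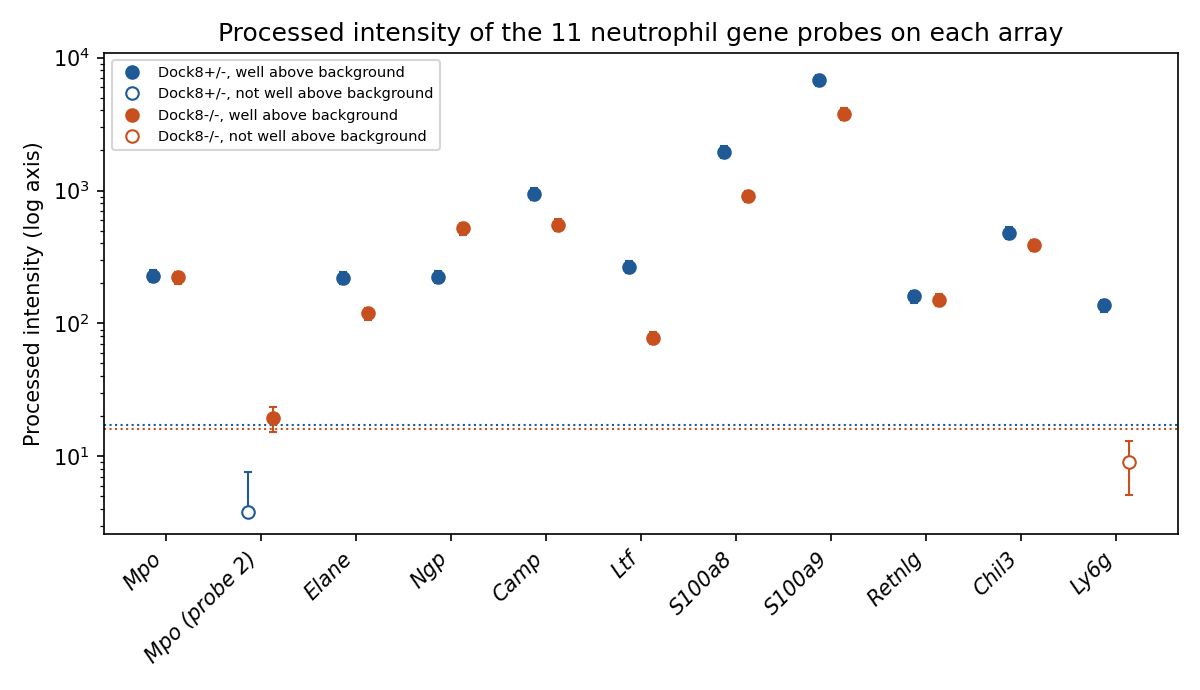
Processed intensity (log axis) of the 11 probes on the Dock8+/- array (blue) and the Dock8-/- array (orange), with the scanner software's spot error as bars; the lower bar is left out where the error exceeds the value, and bars smaller than a symbol are hidden. Open symbols were not well above background, and dotted lines mark the lowest signal well above background on each array (17.4 and 16.1). Ngp is brighter on the Dock8-/- array. The brighter Mpo probe, Retnlg and Chil3 each read at a similar level on both arrays. Ly6g lies below the dotted lines on the Dock8-/- array, as does the dimmer Mpo probe on the Dock8+/- array.

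The specific granule genes went in different directions. Ngp encodes a cystatin-like protein of specific granules. Its processed intensity was 223.7 ± 22.8 (spot error) in Dock8+/- and 518.4 ± 52.0 in Dock8-/-. Ngp was thus brighter in the Dock8-/- sample although that array was the dimmer one, with a scaled difference of 2.27, or 4.84-fold, which is larger than that of 99.2% of all genes read on both arrays. Ltf encodes lactoferrin, an iron-binding protein that specific granules release. Ltf had 265.9 ± 26.9 in Dock8+/- and 78.2 ± 8.57 in Dock8-/-, a difference of -0.70, or 1.63-fold lower. Camp, the gene for the antimicrobial peptide CRAMP, read 943 ± 94.4 and 550.4 ± 55.2, a difference of 0.28 that is below 2 spot errors of 0.20 each.

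The gap between Ngp and Ltf, which are made at the same stage and stored in the same granule, was 2.98 on the log2 scale, a 7.88-fold change of their ratio. The gap between Ngp and Camp was 1.99, and that between Camp and Ltf 0.99. A scaling that shifts a whole array by 1 constant leaves these gaps as they are, but with normexp background correction the gap between Ngp and Ltf was 2.25, or 4.74-fold, and that between Camp and Ltf 0.51. Ngp lay above 0 and Ltf below 0 under each of the 12 settings tried, which are not separate checks. With 1 probe per gene, averaging probes and changing the detection rule leave both values as they are. The authors' value table is itself quantile-normalised and nearly repeats quantile normalisation. Ngp ranged from 0.42 on the spike-in scale to 2.30 with the 75th percentile of probes well above background, and Ltf from -2.55 to -0.40. In the RefSeq gene order of GRCm38.p6 all 3 genes lie on chromosome 9, with 8 protein-coding genes between Camp and Ngp and 20 between Ngp and Ltf.

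The probes of Ngp and Ltf are shown because the largest contrast among these genes rests on 1 probe for each. The Ngp probe was placed at chr9:110324266-110324814 and the Ltf probe at chr9:110942873-110942932 (mm9, plus strand). The Ngp probe of 60 bases covers 549 bases of the genome and so bridges a splice junction of the transcript, whereas the Ltf probe covers 60 bases and lies within 1 stretch. Whether these lie in coding or untranslated exons was not analysed here.
Ngp: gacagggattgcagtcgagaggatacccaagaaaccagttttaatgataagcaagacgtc
Ltf: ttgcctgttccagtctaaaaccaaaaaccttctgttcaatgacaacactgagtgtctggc
Neither holds a run of 20 or more bases found in a probe of another gene.

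**Figure D2:**
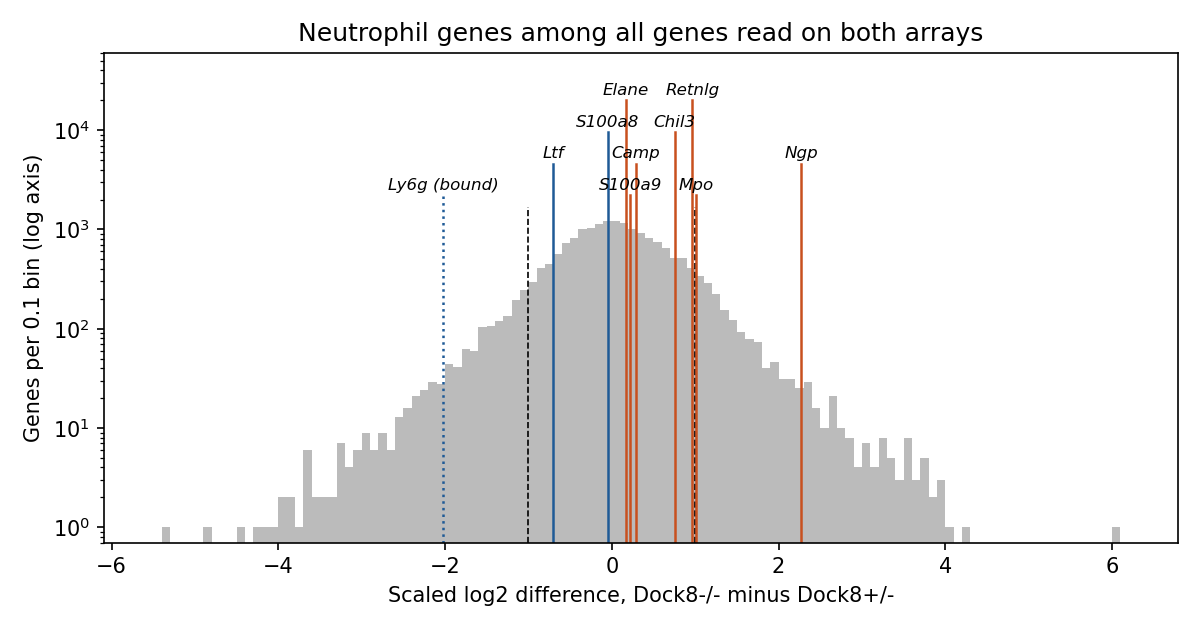
Histogram of the scaled log2 difference of all 18649 genes read on both arrays (grey, log axis, bins of 0.1), with the neutrophil genes as vertical lines (orange above 0, blue below) and dashed lines at 2-fold. Ngp stands at 2.27 in the upper tail, the other 8 measured genes lie between -0.70 and 1.02, and the dotted line of Ly6g is a bound at -2.03, not a measured value.

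The azurophil granule genes were higher or level in the Dock8-/- sample. Mpo encodes myeloperoxidase, which makes hypochlorous acid in the phagosome. On its brighter probe Mpo read 228.9 ± 23.3 in Dock8+/- and 221.6 ± 22.6 in Dock8-/-. These intensities were nearly equal, and the scaled difference was 1.02, or 2.02-fold higher, once the lower 75th percentile of the Dock8-/- array was subtracted. It lay just past 2-fold, was 0.98 after loess and 0.77 with normexp background correction, and turned to -0.05 without scaling and -0.84 on the spike-in scale.

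The second Mpo probe, designed on a predicted transcript variant, was not well above background on the Dock8+/- array, at 3.81 ± 3.83, and only just so on the Dock8-/- array, at 19.4 ± 4.07. Its bound was at least 2.33-fold higher in Dock8-/-, or 1.22 on the log2 scale. The difference of the 2 readings has a spot error of 1.48. That error does not apply to the bound, which puts the lowest signal well above background in place of the Dock8+/- reading. Nearly every gene read in Dock8-/- alone, 99%, has such a bound past 2-fold, so the bound says little of Mpo. It lies at chr11:87615121-87615180 (mm9, plus strand), and is shown because it is 1 of 2 probes that were brighter on the Dock8-/- array before scaling.
Mpo: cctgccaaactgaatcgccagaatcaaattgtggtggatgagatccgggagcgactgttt

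Elane, the gene for neutrophil elastase, read 221.3 ± 22.4 in Dock8+/- and 119.3 ± 12.4 in Dock8-/-, a scaled difference of 0.17 that is within 1 spot error. Prtn3, the gene for proteinase 3 and the direct neighbour of Elane on chromosome 10, was well above background on neither array, at 5.42 and 5.49. Ctsg, encoding cathepsin G of the same granules, was dim, at 38.3 and 29.0, with a difference of 0.66. Ms4a3, a marker of granulocyte and monocyte precursors, lay at -0.93. Genes of the azurophil stage thus covered a range from -0.93 to 1.02, and Prtn3 gave no value.

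The calprotectin genes hardly differed after scaling. S100a8 read 1959 ± 195.9 in Dock8+/- and 908.3 ± 90.9 in Dock8-/-, a difference of -0.05. S100a9, its partner and direct neighbour on chromosome 3, read 6741 ± 674.1 and 3768 ± 376.9, a difference of 0.22. Both were dimmer on the Dock8-/- array by about as much as the array as a whole, and the gap between them was -0.27, which is below 2 spot errors. Neither sign is settled: S100a8 lay above 0 in 2 of 12 settings and S100a9 below 0 in 3 of 12. The 2 settings for S100a8 were quantile normalisation and the authors' quantile-normalised table, which nearly repeat each other, at 0.002 each. Some of the 12 also repeat the reported value by construction.

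The S100a8 probe, at chr3:90473778-90473837 (mm9, plus strand), is shown as the reference for a gene whose reading followed the array as a whole.
S100a8: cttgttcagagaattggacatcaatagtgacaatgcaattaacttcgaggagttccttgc

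The genes for secreted proteins were higher than the array scale, below 2-fold. Retnlg encodes a resistin-like protein of bone marrow and neutrophils. It read 160.2 ± 16.6 in Dock8+/- and 149.9 ± 15.5 in Dock8-/-, and its scaled difference was 0.96, or 1.95-fold, just short of 2-fold. Chil3, which encodes the chitinase-like protein Ym1 of neutrophil precursors and alternatively activated macrophages, read 481 ± 48.2 and 388.4 ± 39.0. Its scaled difference was 0.75, or 1.68-fold, and like that of Retnlg and Mpo it lay below 0 without scaling and on the spike-in scale.

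Ly6g went the other way. Its probe read 136.9 ± 14.3 in Dock8+/- and 9.13 ± 4.01 in Dock8-/-, where it was not well above background. Since the second value lies under the lowest signal well above background there, 16.1, only a bound can be given: Ly6g was at least 4.07-fold lower, or -2.03 on the log2 scale. A bound of a gene read in Dock8+/- alone is kept only where it is below 0, so its sign carries no information. Over the 10 settings that gave a bound, it ranged from -3.88 on the spike-in scale to -0.55 with normexp background correction. In the 2 settings with other detection rules the difference counted as measured, at -2.85.

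Ly6g belongs to a family of close relatives on chromosome 15, and its probe is shown for that reason. Of the 11 probes it was the 1 that shared a run of 20 or more bases with a probe of another gene, a transcript that the files describe as a predicted pseudogene. The shared run of 28 bases is in capitals. The Ly6g probe lies at chr15:74989023-74989082 on the plus strand and the other at chr15:75066100-75066159 on the minus strand (mm9).
Ly6g: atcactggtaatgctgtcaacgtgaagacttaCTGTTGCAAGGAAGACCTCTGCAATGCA
Pseudogene: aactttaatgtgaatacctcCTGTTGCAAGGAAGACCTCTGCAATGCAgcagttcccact
The pseudogene probe read 279 in Dock8+/- and 69.8 in Dock8-/-, a scaled difference of -0.94. How far either probe reads transcripts of the other was not tested.

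**Figure D3:**
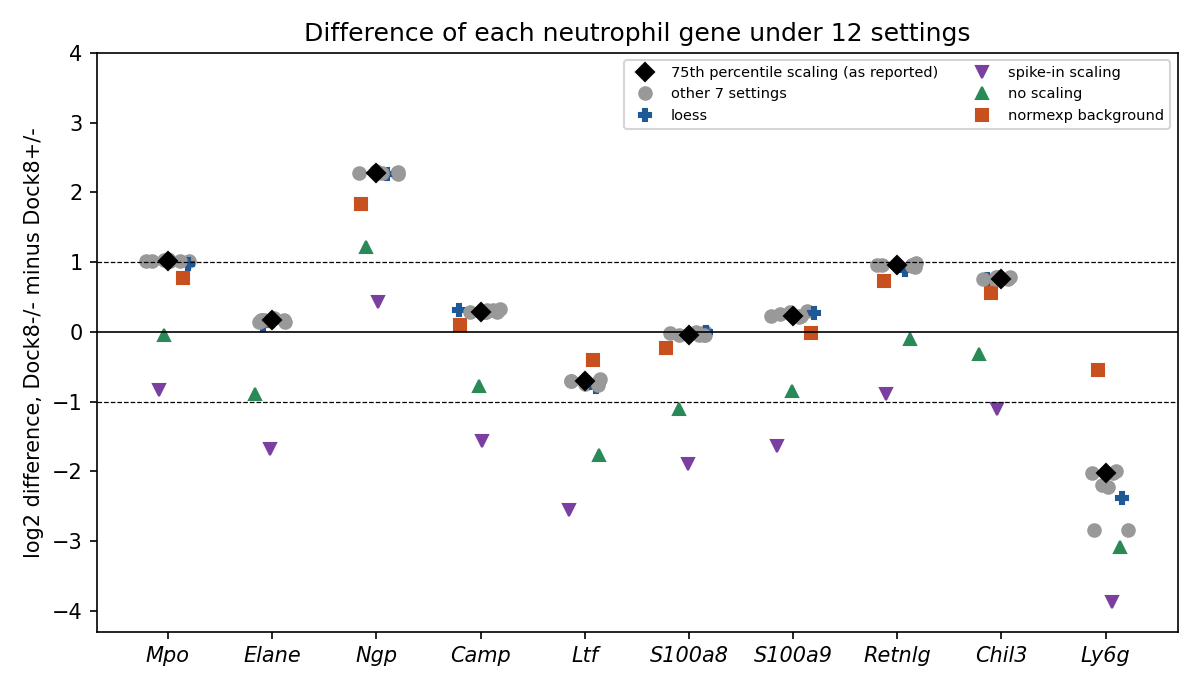
Log2 difference of each neutrophil gene, Dock8-/- minus Dock8+/-, under 12 settings; diamonds are the values reported, coloured symbols the settings that move them most, and dashed lines 2-fold. Ngp stays above 0 and Ltf below 0 throughout. Mpo, Elane, Camp, Retnlg and Chil3 fall below 0 without scaling and on the spike-in scale. Ly6g is a bound in 10 of the 12, and such a bound is kept only where it is below 0. Some settings repeat the reported value by construction.

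Other neutrophil and granulocyte genes also lay on both sides of 0. Of 35 such genes 34 were on the array by name and 17 were read on both arrays, with a median difference of 0.45, of which 3 were higher and 1 lower by 2-fold or more, beside the 9.08% and 7.03% of all genes. Lcn2, encoding the siderophore-binding lipocalin of specific granules, was 3.06-fold higher, with both of its probes above 0 at 1.38 and 1.62. Pglyrp1, a granule protein that binds peptidoglycan, was 2.02-fold and Trem1, an activating receptor of neutrophils and monocytes, 2.13-fold higher. Anxa1, encoding annexin A1, was 4.93-fold lower. Which cells made the RNA of these genes, higher or lower, was not tested. Trem1 and Csf3r, the receptor gene for granulocyte colony-stimulating factor, were read by probes that share at least 20 bases with probes of 4 and 2 other genes, and without them the median was 0.35 over 15 genes.

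Among the remaining genes of specific and gelatinase granules and of granulocyte development, most lay between 0 and 1. Mmp8, neutrophil collagenase, had a difference of 0.64, Wfdc21 0.78, Lrg1 0.96, Csf3r 0.67, Mcemp1 0.45, Ifitm6 0.35, Cebpe, the transcription factor of specific granule genes, 0.26, Fpr2, a formyl peptide receptor, 0.24 and Ncf1, an NADPH oxidase subunit, 0.14. A second Ncf1 probe read on both arrays gave 1.02. Hp, encoding haptoglobin, lay at -0.01 and S100a11 at -0.60. Fcnb and Stfa2 were read in Dock8-/- alone, as were 1.39% of all gene names. Their bounds were 2.80-fold and 2.99-fold higher, and 99% of all genes read that way had a bound past 2-fold higher.

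In the same list, 6 genes were read in Dock8+/- alone, as were 6.88% of all gene names. Mmp9, gelatinase B, was at least 2.15-fold lower, Ltb4r1, a leukotriene B4 receptor, at least 2.16-fold, Il1b, encoding interleukin-1 beta, at least 2.28-fold and Pilra at least 2.57-fold lower. Padi4 and Cybb, read in the same way, had bounds of -0.10 and -0.96. Thus 4 of the 6 had a bound past 2-fold lower, beside 17.6% of all genes read that way. Which cells made the RNA of these 6 genes was not tested. Another 9 genes were well above background on neither array, namely Prtn3, the chemokine receptor gene Cxcr2, Fpr1, Gfi1, Itgb2l, Cd177, Stfa1, Stfa3 and Cxcl2. Among all 37008 gene names, 15259 were well above background on neither array.

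Markers of other blood and bone cells moved beside the neutrophil genes, and their part in the results was not tested. All 15 monocyte and macrophage genes were on the array, and their summed processed intensity was 57390 in Dock8+/- and 9302 in Dock8-/-, of which the lysozyme gene Lyz2 gave 28260 and 1848. On the probe used for each gene, all 13 read on both arrays lay below 0, from -2.87 to -0.27 with a median of -1.52. Of these genes, 10 were lower by 2-fold or more. Where a second probe was read on both arrays, Lyz2, F13a1 and Cx3cr1 stayed below 0 and Csf1r gave 0.39. Over all genes read on both arrays, 48.2% lay below 0 and 7.03% were lower by 2-fold or more. The monocyte gene Ccr2 and the Fc receptor gene Fcgr1 were read on the Dock8+/- array only. The same sum over the 10 neutrophil genes was 11360 and 6712, most of it from S100a9 and S100a8, beside 303.8 and 145.6 for the 75th percentile of the arrays.

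Of 11 erythroid genes, 5 were read on both arrays with a median of -1.15, Alas2 and Slc4a1 in Dock8+/- alone, and the defining genes Klf1 and Rhag were well above background on neither. Of 9 platelet genes, Pf4 was the 1 read on both arrays, at 21.9-fold lower, 4 were read in Dock8+/- alone, 1 (Gp6) in Dock8-/- alone, and Itga2b, Gp9 and Gp1ba were on neither. Of 10 early B cell genes, Igll1, Rag1, Rag2, Cd79a and Dntt were on neither array, and Vpreb1 and Vpreb3 were read on the Dock8+/- array only. The 5 progenitor genes read on both arrays had a median of -0.97 and the 6 bone cell genes -2.41, with Bglap, Ibsp, Dmp1 and Runx2 on neither. Of those 6 bone cell genes 5 lay below 0 and 1, the osteoblast gene Sp7, lay above it at 0.76. Bglap2 was read in Dock8+/- alone, at least 4.23-fold lower in Dock8-/-. Of 8 eosinophil genes only Prg2 was read on both arrays, at 0.51, Ear2 and Ear1 were read in Dock8+/- alone, Ear2 at least 4.65-fold lower, and Epx, Siglecf and Ccr3 were on neither. Of all 37008 gene names, 15259 were on neither array, 6.88% were read in Dock8+/- alone and 1.39% in Dock8-/- alone. Kit stands in 2 of these lists. Beside the medians of these lists, that of the neutrophil genes was 0.28 and that of the sensory neuron genes 0.06. The differences between lists were not tested.

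**Figure D4:**
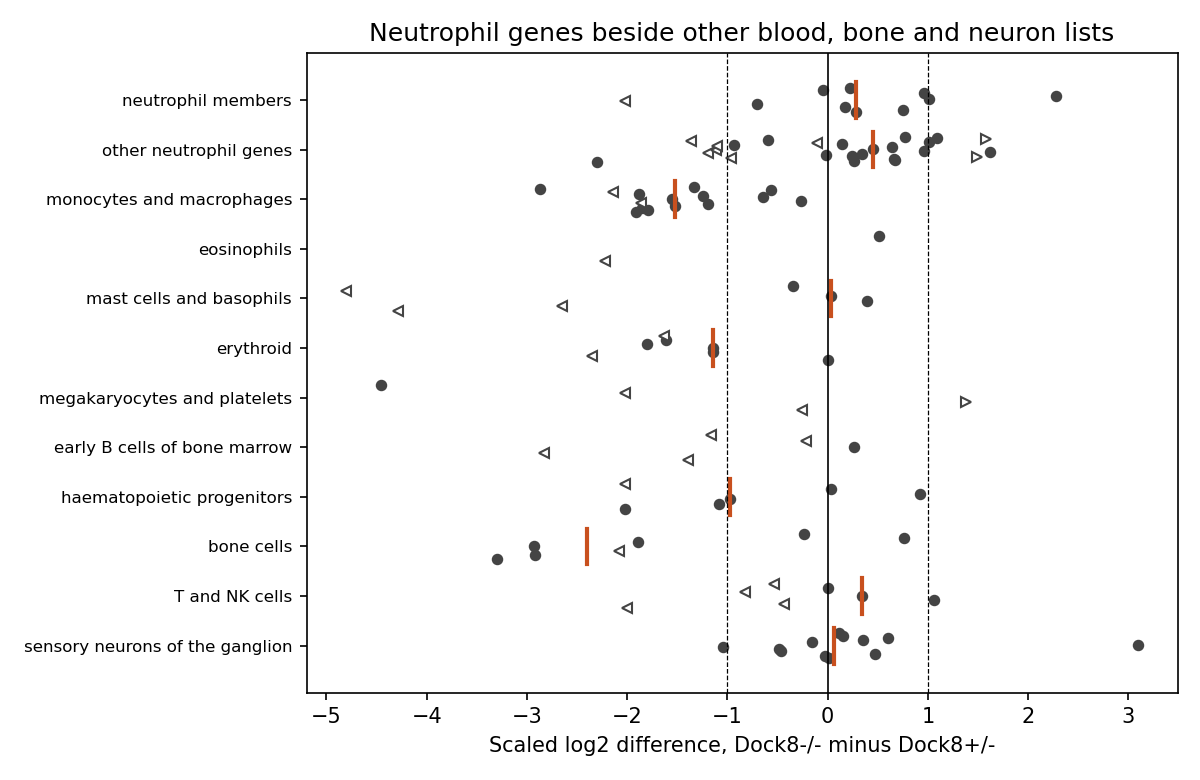
Scaled log2 difference of each gene by list (filled circles, read on both arrays; open triangles, bounds pointing away from 0), with an orange bar at the median of lists with at least 3 genes read on both arrays. The neutrophil genes spread from Ltf at -0.70 to Ngp at 2.27 around a median of 0.28. The 13 monocyte and macrophage genes all lie below 0 on the probe used for each.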

How the data were processed

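Per the file headers, the authors scanned both arrays on 1 slide and made the intensity of each spot with Agilent Feature Extraction 10.7.1.1 (9.5.1.1 per the submitters' processing notes); the processed intensity is background-subtracted and detrended, and dim spots hold a small surrogate. The deposited value table, used as an alternative, holds quantile-normalised linear intensities: 98.9% of sorted values were equal in both columns (tolerance 0), with a median of 27.9 in each and a correlation of at least 0.999 with the matching scanner file on the log2 scale; it was not centred by gene. The other values the authors deposited and that were used are 0 or 1 flags.

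From these, spots of the same probe were averaged as log2 processed intensity after dropping non-uniform ones (3 and 1), and values were set relative to the 75th percentile of the array's non-control probes. Probes were named by RefSeq accession (32990), current symbol (10224), older symbol (520) or the file's name (12867), with RefSeq's GRCm38.p6 table used for names and gene order only; positions are the files', on mm9. A gene took its probe with the highest mean. Where 1 array was not well above background, the bound compares the bright reading with the dim array's lowest signal well above background, or with the dim reading itself if that is higher. With 1 array per group no test was made. Probes with 10 spots (298) had an SD of 0.043 and 0.046. Steps were tested on simulated data. Alternatives used limma 3.58.1 in R 4.3.3 (normexp offset 50, loess span 0.3, quantile), 8 spike-in probes, other filters, 1.5-fold and 3-fold.

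The genes and lists were chosen with earlier results of these data known. The text names all 10 genes with every probe, every gene of the other neutrophil list with a value, and a few of each other list; defining markers on neither array are named after their values were seen. Some genes of these lists are not reported here by name.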

Additional observations from a re-analysis of the deposited data

How the results depend on the processing

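There was no replicate to leave out. No paired analysis was possible because a single array stands for a genotype, with no test. Moving to the spike-in scale shifts every gene by -1.85, and leaving out the scaling by -1.06. The number of neutrophil genes at least 2-fold higher was 2, but 1 after loess, with normexp, without scaling and at 3-fold, 0 on the spike-in scale and 4 at 1.5-fold. The number at least 2-fold lower was 0, but 6 on the spike-in scale, 2 without scaling, and 1 each with no filter on dim probes, with the weaker detection flag and at 1.5-fold. Mpo was -0.84 on the spike-in scale and -0.046 without scaling. The median of the 9 genes was 0.28, but -1.57 on the spike-in scale, -0.78 without scaling and 0.16 with normexp. The median of the other neutrophil genes was 0.45, but 0.27 after quantile normalisation and in the authors' value table, 0.21 after loess, 0.58 with the mean of probes, 0.55 with the weaker detection flag, -1.40 on the spike-in scale and -0.61 without scaling; without Trem1 and Csf3r, chosen after seeing the data, it was 0.35. Over all genes, 1694 were higher and 1311 lower, but 57 and 16293 on the spike-in scale, 221 and 9728 without scaling, 703 and 865 with normexp, 5437 and 2758 with no filter on dim probes, 3403 and 2068 with the weaker flag, 3890 and 3147 at 1.5-fold and 486 and 424 at 3-fold. Thresholds and filters change counts by construction, and otherwise the cause was not tested. Signal over background limits Ly6g and the second Mpo probe.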

Other observations

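Relatives of 3 of these genes, chosen after the values of the neutrophil genes were seen, gave other readings. Ly6c1 and Ly6c2, surface antigens of monocytes and of endothelium in the Ly6g family, were bright on both arrays, with differences of -0.56 and -0.57, against at least 4.07-fold lower for Ly6g. The 2 Ly6c1 probes gave -0.56 and 0.10. Ly6i was well above background on neither. Chil1, a relative of Chil3 made by glia and macrophages, had a difference of -0.69 against 0.75 for Chil3, and Chil4 was well above background on neither array, at 4.21 and 3.97. Retnla, a relative of Retnlg and a marker of alternatively activated macrophages, read 2009 in Dock8+/- and 4.43 in Dock8-/-, at least 59.7-fold lower, while Retnlg was 1.95-fold higher.

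Genes for signals that recruit neutrophils were mostly unread. Of 9, Cxcl1, a neutrophil chemokine, was the 1 read on both arrays, with a difference of -0.79, and Cxcl2, Cxcl3, Cxcl5, Csf3, Il17a, Il6 and Sele were well above background on neither. Over all gene names, 15259 of 37008 were on neither array. Of 8 genes of dividing cells, Mki67 lay at -0.63, Birc5 at 0.40 and Plk1 at 0.46, Top2a and Ccnb1 were read in Dock8+/- alone, and Cdk1, Bub1 and Aurkb were on neither array. Mast cell and basophil genes divided: Kit, Hdc and Tpsb2 lay between -0.35 and 0.39, while 4 were read in Dock8+/- alone, among them Mcpt4, Cma1 and Cpa3 with bounds of 27.9-fold, 19.6-fold and 6.27-fold lower. T and NK cell genes read on both arrays had a median of 0.34 over 3 genes, from -0.001 for Lck to 1.06 for Cd3e. Another 4 were read in Dock8+/- alone, with bounds of 4.01-fold lower for Cd2, 1.78-fold for Gzma, 1.45-fold for Nkg7 and 1.35-fold for Cd3d, and Cd3g, Cd8a and Klrd1 were on neither array.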
